A study of Mus musculus with 6 samples.

Results

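The genes described here encode the GSK3 kinases and the β-catenin destruction complex. They were chosen by name, with earlier results of these data known. They are the kinases Gsk3a and Gsk3b, their substrate Ctnnb1 (β-catenin), the scaffolds Apc and Axin1 and the priming kinase Csnk1a1. The others are the F-box proteins Btrc and Fbxw11 that pick out phosphorylated β-catenin for ubiquitination, and the GSK3-binding proteins Frat1 and Frat2. All 10 were listed, among 47729 genes. Ribosome-associated RNA was sequenced in 6 libraries, 3 for each group. Ctrl mice received AAV GFP and Gsk3sKO in mPFC D2 mice received AAV Gsk3sgRNA/GFP in the medial prefrontal cortex (mPFC), which was dissected 3 weeks later. All mice were adult males, labeled C57BL/6 and used for injection at 2.5 to 3 months, from the D2Cre/LSL-Flag-Cas9/RiboTag line, so Ctrl mice also carried Cre driven by the Drd2 promoter, Cre-dependent Cas9 and hemagglutinin-tagged Rpl22. Ctrl therefore differed from Gsk3sKO by the sgRNA, and the control virus is described without a scrambled guide. The sources used here do not say whether a library holds 1 mouse or several, and p-values here describe no more than library-to-library spread, which may be technical.

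In the absence of a Wnt signal, axin and APC hold β-catenin in a complex where casein kinase 1α adds a first phosphate and GSK3 then phosphorylates neighboring residues. The phosphorylated stretch, or degron, is bound by β-TrCP (encoded by Btrc and Fbxw11), which hands β-catenin to the ubiquitin ligase for destruction. Wnt receptors stop this, FRAT proteins bind GSK3 in competition with axin, and in neurons that receive dopamine through D2 receptors GSK3β is also controlled by Akt.

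The summed FPKM of Gsk3b, the targeted gene, was 26.3% lower in Gsk3sKO with groups that overlapped and was not called, while a total weighted by transcript length, chosen after the data were seen, was 32.9% lower and called. Gsk3a was not detectably different. Frat1 was near or at 0 in every Gsk3sKO library and above 0.9 FPKM in every Ctrl library. The summed FPKM of Axin1 was lower in all Gsk3sKO libraries, with a call that depended on single libraries and was absent from the total weighted by length, where the groups overlapped. No member passed the Benjamini-Hochberg adjustment over all genes in limma, the linear model used for all genes at once, so each call below is at the unadjusted threshold of 0.05.

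Values are FPKM (fragments per kilobase of transcript and per 1000000 mapped fragments), which can be compared between genes because they are per length. A gene total is the sum of the FPKM of its transcripts. Summing FPKM gives a short transcript the weight of a long one, so a second total was made by multiplying each transcript's FPKM by its length in kilobases before summing, which gives fragments per 1000000 mapped fragments (FPM). This second total does not change when the same fragments are shared out differently between transcripts, but it is not per length and is compared only within a gene. Fold changes are on log2(value + 1).

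The sgRNA was directed at exon 3 of Gsk3b, which encodes part of the kinase domain. The annotation places Gsk3b at chr16:38089001-38246084 on the plus strand of GRCm38, and exon 3 at chr16:38170664-38170747. The exon is held by all 4 listed Gsk3b transcripts and is coding in Gsk3b-201 and Gsk3b-202, so no listed transcript escapes it. It is shown because the guide was directed there, followed by the 39 bases that Gsk3b-202 has and Gsk3b-201 lacks, since Gsk3b-202 was low in 1 Ctrl library. Exons 1 and 12 of Gsk3b-202 are also bounded differently, but all of their 326 and 278 bases lie within exons of Gsk3b-201. The exon absent from Gsk3b-201 lies at chr16:38217113-38217151, is in capitals within 15 bases of its neighboring exons on each side, and is coding with a length that is a multiple of 3.
Gsk3b exon 3: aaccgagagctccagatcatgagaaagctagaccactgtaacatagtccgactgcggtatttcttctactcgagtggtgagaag
Gsk3b-202 exon 9 of 12: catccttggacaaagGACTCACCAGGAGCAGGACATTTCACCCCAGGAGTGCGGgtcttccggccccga

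The Gsk3b gene total was 35.6, 53.8 and 56.5 FPKM in Ctrl replicates 1 to 3 and 36.9, 37.0 and 33.6 FPKM in Gsk3sKO replicates 1 to 3. Ctrl replicate 1 was as low as the Gsk3sKO libraries and the groups overlapped. The means were 48.6 ± 11.3 FPKM (SD, n = 3) in Ctrl and 35.8 ± 1.93 FPKM in Gsk3sKO, a difference of -26.3% of the Ctrl mean. The log2 fold change was -0.40 with a standard error of 0.19 (limma unadjusted p = 0.0648, adjusted p = 0.773). Without Ctrl replicate 1 it was -0.61 (limma unadjusted p = 0.00265). That library was the farthest from the other Ctrl values.

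The transcripts showed where Ctrl replicate 1 stood apart. Gsk3b-201, the long transcript of 8303 bases, was at 33.5, 34.7 and 36.2 FPKM in Ctrl, against 24.8, 21.6 and 21.2 FPKM in Gsk3sKO. All 3 Gsk3sKO values were under the lowest Ctrl value, and Ctrl replicate 1 was not apart from the others. Its log2 fold change was -0.61 with a standard error of 0.14 (limma unadjusted p = 0.00448, adjusted p = 0.619), and it kept an unadjusted p under 0.05 in limma under each alternative run. Gsk3b-202, of 1750 bases, was at 1.85, 18.7 and 20.03 FPKM in Ctrl, against 11.9, 15.4 and 12.5 FPKM in Gsk3sKO. Here Ctrl replicate 1 was the lowest of all libraries and the other Ctrl libraries were the highest. The log2 fold change of Gsk3b-202 was 0.42 with a standard error of 0.78 (limma unadjusted p = 0.603) and turned to -0.52 without Ctrl replicate 1 (limma unadjusted p = 0.0382). Gsk3b-201 took 94.2% of the gene total in Ctrl replicate 1 and between 58.4% and 67.2% in the other 5 libraries. Its share was 74.3% ± 17.2 (SD, n = 3) in Ctrl and 62.8% ± 4.42 in Gsk3sKO, which an exact permutation test did not separate (p = 0.4, 2-sided, smallest possible 0.1). The retained-intron transcript Gsk3b-203 was at 0.230, 0.389 and 0.186 FPKM in Ctrl, against 0.161, 0.0295 and 0.0194 FPKM in Gsk3sKO, below the filter of a mean of 1 FPKM, and Gsk3b-204 was listed at 0 in all libraries.

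Counted in FPM, Gsk3b was at 282, 322 and 336 in Ctrl, against 227, 206 and 197 in Gsk3sKO. Every Gsk3sKO library was below every Ctrl library on this total. The means of 313 ± 28.0 (SD, n = 3) and 210 ± 15.3 differed by -32.9% of the Ctrl mean. The log2 fold change was -0.57 with a standard error of 0.13 (limma unadjusted p = 0.00120, adjusted p = 0.486), and it lay between -0.65 and -0.52 when each library was left out in turn, each time with an unadjusted p under 0.05. In bulk libraries, fewer cells holding an RNA and less of it per cell cannot be told apart, and the share of RNA from unedited cells was not measured. By staining of D2Cre/LSL-Flag-Cas9 mice, the paper reports that most Flag-Cas9 cells of the injected mPFC lacked GSK3β protein. The RNA values here do not measure protein, so the RNA difference does not give the extent of the knockout.

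Gsk3a, the paralog that phosphorylates many of the same substrates, lies at chr7:25228258-25237851 on the minus strand. Its gene total was 39.8, 43.8 and 48.5 FPKM in Ctrl and 50.1, 48.6 and 43.6 FPKM in Gsk3sKO. The highest Ctrl library lay among the Gsk3sKO libraries, and the groups overlapped. The log2 fold change was 0.11 with a standard error of 0.14 (limma unadjusted p = 0.456). Gsk3a overlaps 9130221H12Rik on the other strand, and the strand setting used by the authors is not given in the sources used here. Other annotated overlaps were Gm25617 and Gm27931 with Gsk3b, AC140047.1 with Axin1, Gm6807 with Btrc and Gm10548 with Apc. The main transcript, Gsk3a-201, had a log2 fold change of 0.14 with a standard error of 0.16, and Gsk3a-202 was listed at 0 in Gsk3sKO replicate 3 and between 7.89 and 14.96 FPKM elsewhere.

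The ratio of the kinases within a library does not depend on how that library was scaled. Gsk3b divided by Gsk3a, both as FPKM, was 0.895, 1.23 and 1.16 in Ctrl and 0.737, 0.760 and 0.770 in Gsk3sKO. All Ctrl ratios were above all Gsk3sKO ratios, with Ctrl replicate 1 the nearest to them. The difference of the mean log2 ratios was -0.52 (exact permutation test, 2-sided p = 0.1, the smallest possible with 3 against 3 libraries). From FPM the ratio was 3.18, 3.25 and 3.08 in Ctrl and 2.02, 1.88 and 2.01 in Gsk3sKO, where the larger numbers come from the greater length of Gsk3b. Here the Ctrl libraries were close together, and the difference was -0.69 on the log2 scale (exact permutation test, p = 0.1).

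**Figure D1:**
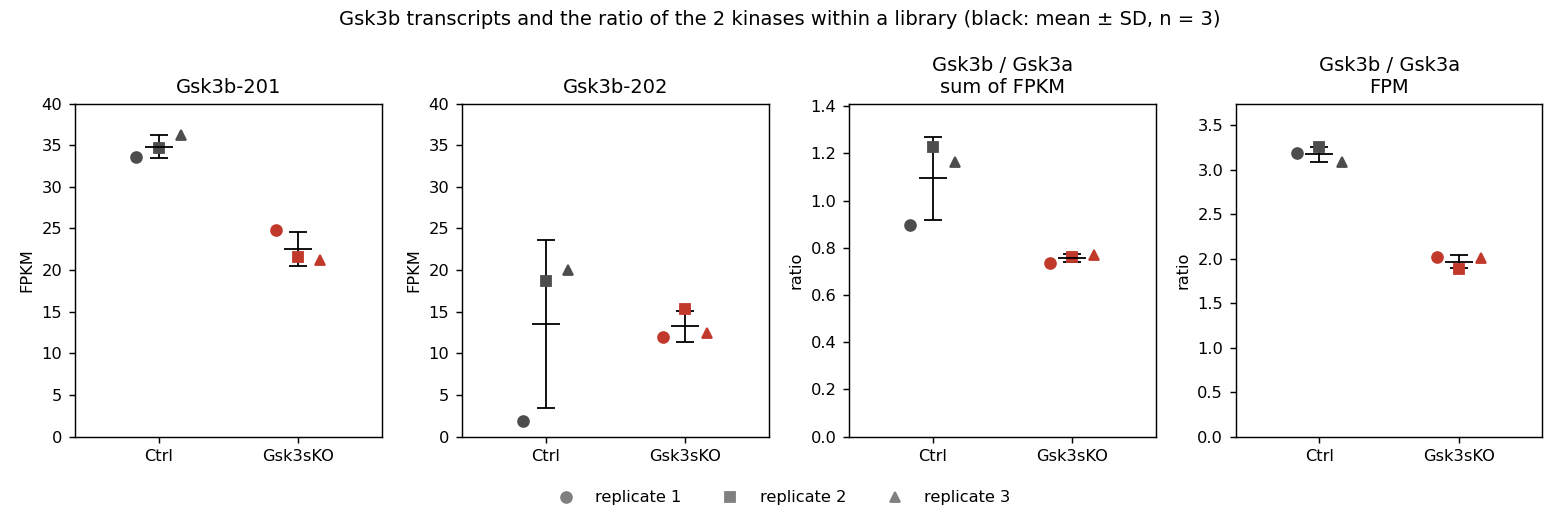
Values of the 3 Ctrl and 3 Gsk3sKO libraries (symbols mark the replicate number, black marks the mean and SD) for Gsk3b-201 and Gsk3b-202 in FPKM and for the ratio of Gsk3b to Gsk3a from either total. Ctrl replicate 1 stands apart at 1.85 FPKM of Gsk3b-202, and the 3 Ctrl ratios from FPM lie between 3.08 and 3.25, above all Gsk3sKO ratios.

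Ctnnb1, the substrate, is an adhesion protein and transcriptional co-activator whose protein level the complex controls. It lies at chr9:120929216-120960507 on the plus strand, and overlaps Ulk4 and 4930593C16Rik on the minus strand and Mir7090 on its own. The 63 bases at chr9:120950593-120950655 encode codons 29 to 49 in exon 3 of 15 of Ctnnb1-201. They are shown because they hold the degron, and the capitals mark codons 33, 37, 41 and 45, the residues phosphorylated by GSK3 and, at codon 45, by casein kinase 1.
Ctnnb1 codons 29 to 49: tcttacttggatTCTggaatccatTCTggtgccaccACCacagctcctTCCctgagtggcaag

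The Ctnnb1 gene total was 64.2, 80.3 and 103 FPKM in Ctrl and 74.1, 84.9 and 66.8 FPKM in Gsk3sKO. All Gsk3sKO libraries lay within the range of Ctrl. Between the groups the log2 fold change was -0.11 with a standard error of 0.19 (limma unadjusted p = 0.572), and in FPM it was -0.06 with a standard error of 0.15. Leaving out Ctrl replicate 3, the highest library, turned the direction to 0.06. Of the 14 listed transcripts, 6 code for the degron codons and 8 do not. The degron-coding transcripts together were at 61.5, 47.8 and 57.8 FPKM in Ctrl, against 44.3, 25.7 and 66.7 FPKM in Gsk3sKO. The lowest and the highest of these sums were both in Gsk3sKO, and the groups were not separated (exact permutation test, 2-sided p = 0.6). The retained-intron Ctnnb1-209 holds the same bases without coding for the degron. These sums therefore depend on how fragments were divided between transcripts, and the test cannot tell that division from a group difference.

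The transcripts of Ctnnb1 were too unstable between libraries of 1 group for a comparison. Ctnnb1-201 was at 60.6, 2.15 and 18.5 FPKM in Ctrl, against 5.18, 23.3 and 55.2 FPKM in Gsk3sKO. Ctnnb1-214, which codes for the same degron, was listed at 0 in Ctrl replicate 1 and in Gsk3sKO replicates 2 and 3, and was between 33.9 and 39.2 FPKM in the others. The retained-intron transcript Ctnnb1-209 ranged from 0.155 to 57.4 FPKM within Gsk3sKO alone. Where Ctnnb1-201 was high, Ctnnb1-209 and Ctnnb1-214 were low, while the gene total varied far less. Ctnnb1-208 and Ctnnb1-212 were lower in level, at most 11.4 and 3.93 FPKM, and neither was called.

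Btrc and Fbxw11 encode the paralogs β-TrCP1 and β-TrCP2, which bind the degron. Btrc (chr19:45363734-45530013, plus strand) was at 17.3, 18.9 and 18.4 FPKM in Ctrl, against 17.3, 16.4 and 12.1 FPKM in Gsk3sKO. Each Gsk3sKO library was below each Ctrl library, but the highest Gsk3sKO and the lowest Ctrl value were nearly equal. This gave a log2 fold change of -0.26 with a standard error of 0.18 (limma unadjusted p = 0.186), and -0.11 without Gsk3sKO replicate 3. Fbxw11 (chr11:32642724-32746816, plus strand) was at 42.1, 35.3 and 35.9 FPKM in Ctrl, against 36.7, 35.7 and 26.7 FPKM in Gsk3sKO. The groups overlapped, and Gsk3sKO replicate 3 was the lowest for both genes. The log2 fold change of Fbxw11 was -0.20 with a standard error of 0.17 (limma unadjusted p = 0.266). Divided by Fbxw11, Btrc was at 0.412, 0.536 and 0.512 in Ctrl, against 0.470, 0.461 and 0.454 in Gsk3sKO, and the groups overlapped (exact permutation test, p = 0.6). Btrc-201 carried most of Btrc, with a log2 fold change of -0.33 and a standard error of 0.20, and Btrc-202 was above 0 in replicate 1 of each group only. The 4 tested Fbxw11 transcripts, Fbxw11-201 to Fbxw11-204, had log2 fold changes between -0.34 and 0.29, none of them called.

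Axin1 encodes the scaffold that brings GSK3, casein kinase 1α and β-catenin together. At chr17:26138688-26195811 on the plus strand, it was at 7.97, 7.74 and 10.7 FPKM in Ctrl, against 6.76, 4.27 and 5.20 FPKM in Gsk3sKO. Every Gsk3sKO library was below every Ctrl library, with Gsk3sKO replicate 1 the nearest. The means were 8.80 ± 1.64 (SD, n = 3) and 5.41 ± 1.26 FPKM. Axin1 fell by 0.62 on the log2 scale with a standard error of 0.23 (limma unadjusted p = 0.0273, adjusted p = 0.719). The call was lost without Ctrl replicate 3 (-0.48, limma unadjusted p = 0.110). It was also lost without Gsk3sKO replicate 2 (-0.49, limma unadjusted p = 0.0898) and without Gsk3sKO replicate 3 (-0.60, limma unadjusted p = 0.0551). In FPM, Axin1 was at 27.0, 23.5 and 28.8 in Ctrl, against 23.9, 14.7 and 16.6 in Gsk3sKO, where the groups overlapped, and the log2 fold change of -0.52 was not called (limma unadjusted p = 0.0528). Its tested transcripts, Axin1-201 and Axin1-203, had log2 fold changes of -0.27 and -0.48 with standard errors of 0.38 and 0.59.

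Apc, the other scaffold, which also binds microtubules, lies on chromosome 18 from 34220924 to 34322552 on the plus strand. Its gene total was 87.7, 85.8 and 80.2 FPKM in Ctrl and 78.5, 112 and 159 FPKM in Gsk3sKO. Gsk3sKO replicate 1 was the lowest of all libraries and the other Gsk3sKO libraries were the highest. In limma the log2 fold change was 0.40 with a standard error of 0.23 (limma unadjusted p = 0.123). It was 0.65 without Gsk3sKO replicate 1 (limma unadjusted p = 0.00908) and 0.15 without Gsk3sKO replicate 3 (limma unadjusted p = 0.428). In FPM, Apc was at 347, 377 and 378 in Ctrl, against 369, 738 and 412 in Gsk3sKO. On this total Gsk3sKO replicate 2 stood alone, and Gsk3sKO replicate 3, the highest by FPKM, was close to Ctrl.

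The Apc transcripts were exchanged between the same libraries. Gsk3sKO replicate 3 had 93.9 FPKM of Apc-209, of 3588 bases, where the other 5 libraries had between 7.69 and 26.7 FPKM, and it had Apc-203, of 12346 bases, listed at 0. Gsk3sKO replicate 2 had 53.2 FPKM of Apc-203 against 17.6 to 22.9 FPKM in the remaining 4 libraries. The short Apc-204, annotated as subject to nonsense-mediated decay, was the steadiest, at 30.6 to 41.0 FPKM in Ctrl and 37.1 to 46.0 FPKM in Gsk3sKO, which gave a log2 fold change of 0.24 with a standard error of 0.17. Apc-201, Apc-202 and Apc-206 were below 18 FPKM in all libraries, and none of the 6 tested Apc transcripts was called. Axin1 divided by Apc, as FPKM, was 0.0909, 0.0902 and 0.133 in Ctrl and 0.0862, 0.0382 and 0.0328 in Gsk3sKO. The groups did not overlap (exact permutation test, p = 0.1, the smallest possible), but Gsk3sKO replicate 1 was close to Ctrl. From FPM the ratio was 0.0778, 0.0623 and 0.0760 in Ctrl and 0.0648, 0.0199 and 0.0404 in Gsk3sKO, where the groups overlapped (exact permutation test, p = 0.2).

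Csnk1a1, casein kinase 1α, lies on chromosome 18 from 61555274 to 61590061 on the plus strand. It was at 59.2, 63.0 and 74.3 FPKM in Ctrl, against 70.7, 57.3 and 71.8 FPKM in Gsk3sKO. The ranges of the groups nearly coincided. The log2 fold change of 0.02 had a standard error of 0.15 (limma unadjusted p = 0.877), and its direction turned when any of 4 libraries was left out. Its main transcripts varied less between libraries than those of Ctnnb1 and Apc. Csnk1a1-210 was between 31.8 and 44.3 FPKM and Csnk1a1-204 between 19.8 and 28.2 FPKM, and neither they nor the low Csnk1a1-206 and Csnk1a1-208 were called.

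**Figure D2:**
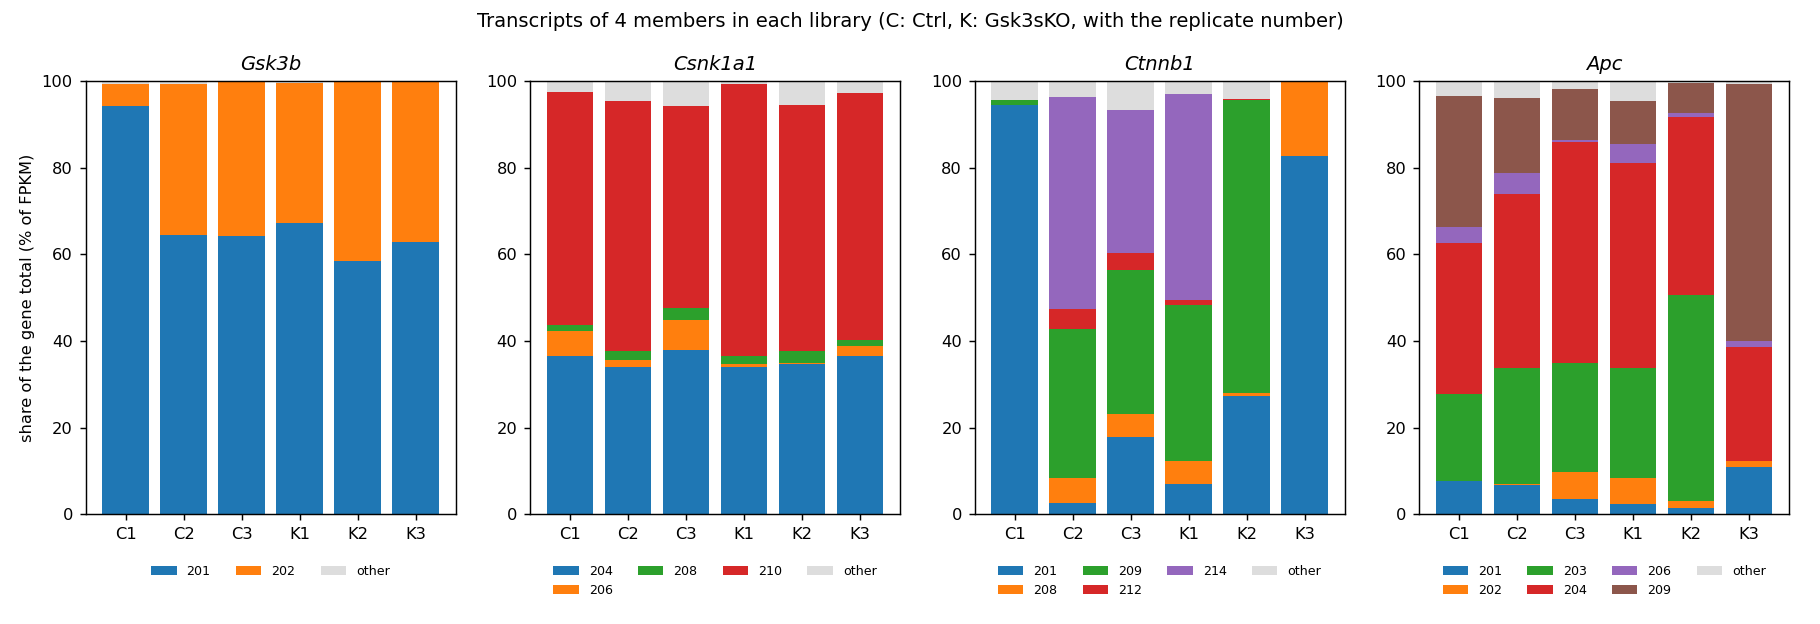
Share of the gene total (percent of FPKM, stacked to 100) that each transcript took in Ctrl replicates 1 to 3 (C1 to C3) and Gsk3sKO replicates 1 to 3 (K1 to K3) for Gsk3b, Csnk1a1, Ctnnb1 and Apc. The shares of Csnk1a1 are similar in all libraries, Gsk3b differs in Ctrl replicate 1, where Gsk3b-201 takes 94.2%, and those of Ctnnb1 and Apc change from library to library within a group.

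Frat1 and Frat2 encode paralogs that bind GSK3 and keep it from axin. They are neighbors on chromosome 19, Frat1 at chr19:41829970-41832583 on the plus strand and Frat2 at chr19:41845972-41848132 on the minus strand, and each has 1 listed transcript with 1 exon, so their totals do not depend on how reads were divided between transcripts. Frat1 was at 2.34, 1.73 and 0.963 FPKM in Ctrl, against 0.163 FPKM in Gsk3sKO replicate 1, and was listed at 0 in Gsk3sKO replicates 2 and 3. All Gsk3sKO libraries were below all Ctrl libraries. By the estimated depth, which is rough, these values stand for about 281, 145 and 59.4 fragments in Ctrl and 17.6, 0 and 0 in Gsk3sKO. Its mean over all libraries, 0.867 FPKM, was under the filter, so it had no place in the main test. Fitted without the filter, its log2 fold change was -1.32 with a standard error of 0.25 (limma unadjusted p = 0.00205, adjusted p = 0.798), in a fit where 3.30% of gene totals were called lower. In FPM it was at 6.12, 4.53 and 2.52 in Ctrl, 0.427 in Gsk3sKO replicate 1 and 0 in the others. On this total it passed the filter, but only through its Ctrl values, as its Gsk3sKO mean was 0.142. Its log2 fold change in FPM was -2.20 with a standard error of 0.42 (limma unadjusted p = 0.000415, adjusted p = 0.350). That call is no separate support for the difference. Each alternative in which Frat1 was fitted kept an unadjusted p under 0.05.

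How often genes at this level were listed at 0 differed between the libraries. Of 2169 genes above 0 in every Ctrl library with a Ctrl mean from 1 to 2.5 FPKM, 49, 131 and 118 were listed at 0 in Gsk3sKO replicates 1 to 3, and 3.18% were so in at least 2 of them. Of 2135 genes chosen the same way from Gsk3sKO, 65, 8 and 18 were listed at 0 in Ctrl replicates 1 to 3, and 0.468% in at least 2. Frat1 was among the former genes. The part of this difference in the Frat1 values was not tested.

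Frat2 was at 1.65, 1.74 and 1.10 FPKM in Ctrl, against 0.794, 0.931 and 2.11 FPKM in Gsk3sKO. Gsk3sKO replicate 3, where Frat1 was listed at 0, had the highest Frat2 of all libraries, and the groups overlapped. The difference amounted to a log2 fold change of -0.17 with a standard error of 0.34 (limma unadjusted p = 0.629).

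**Figure D3:**
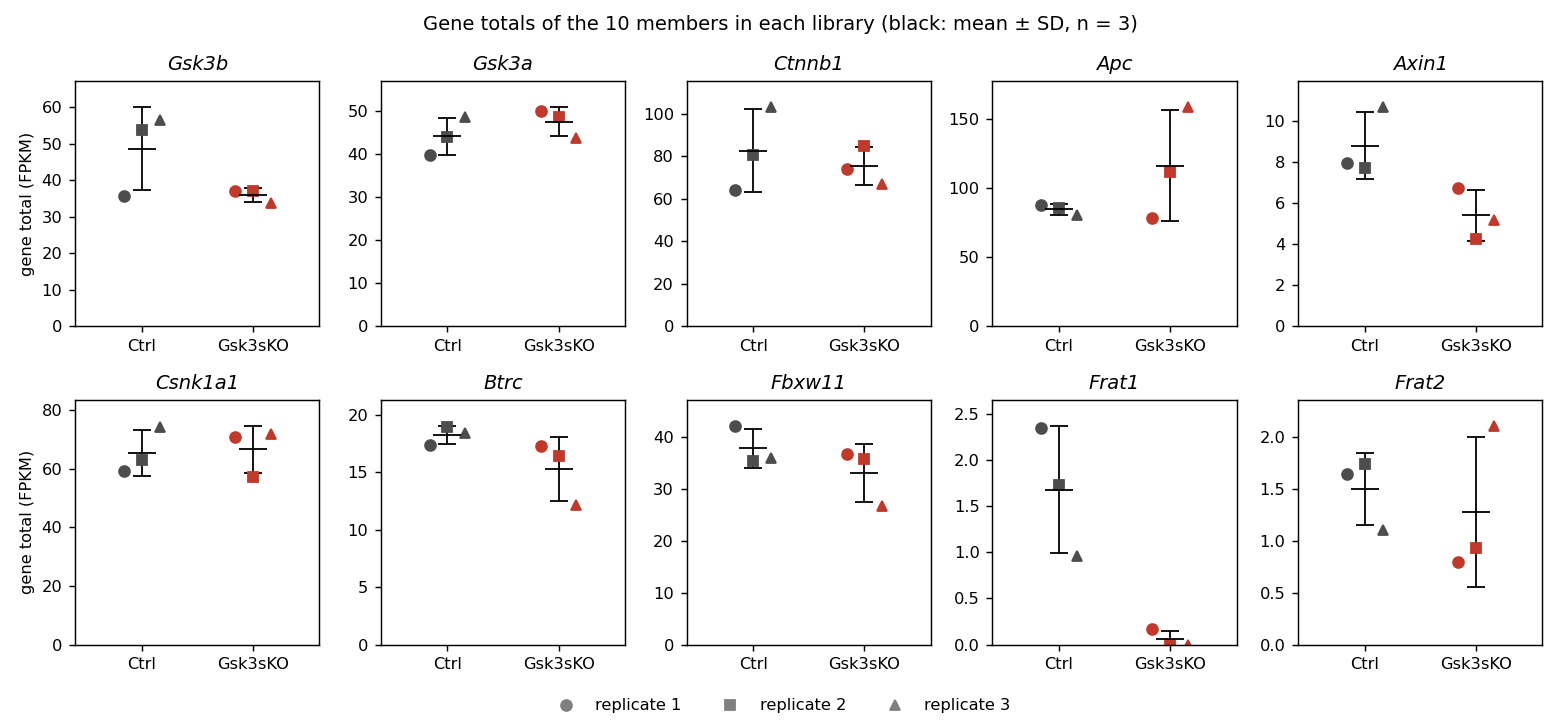
Gene totals in FPKM of the 10 genes in each of the 3 Ctrl and 3 Gsk3sKO libraries, on axes from 0, with the mean and SD in black and a symbol for each replicate number. Axin1, Btrc and Frat1 have every Gsk3sKO library below every Ctrl library, while Gsk3b overlaps through Ctrl replicate 1 at 35.6 FPKM.

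Counted over the genes, 9 of 10 passed the filter and 1 of the 9 was called, Axin1, where 6.56% of all 12874 tested gene totals were called and 5.20% were called lower. The groups did not overlap, with Gsk3sKO below, for 2 of the 9, Axin1 and Btrc, where 8.30% of tested gene totals had that pattern. Counts this small do not set the genes apart from that background. The median log2 fold change of the 9 was -0.17 against -0.06 over all tested gene totals. In FPM all 10 passed the filter and 2 were called, Gsk3b and Frat1, where 5.72% of 13787 gene totals were called. Frat1 passed that filter only through its Ctrl values. Of 54 listed transcripts of these genes, 51 were above 0 in some library and 28 passed the filter, of which 1 was called, Gsk3b-201, where 5.56% of 21584 tested transcripts were called. Of all gene totals, 6 passed the adjustment by limma as FPKM and 1 in FPM, and none of these was a gene described here.

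**Figure D4:**
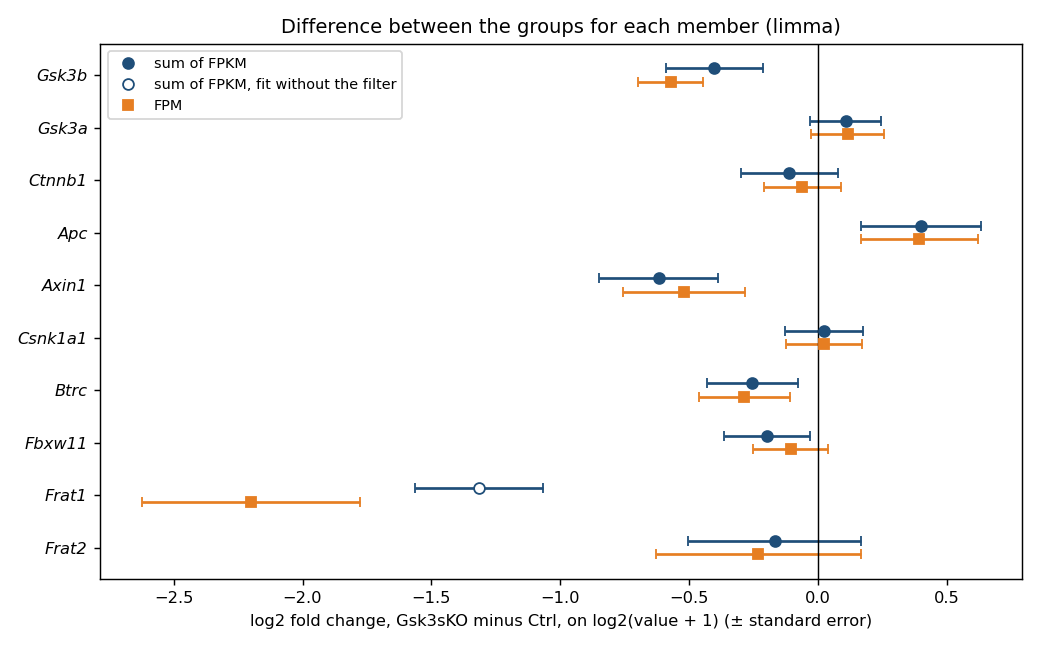
log2 fold change (Gsk3sKO minus Ctrl, on log2(value + 1), with the limma standard error) of each gene from the sum of FPKM (circles, open for the fit without a filter) and from FPM (squares). Frat1 is the lowest on either total, Gsk3b moves from -0.40 to -0.57 and has a smaller error on the second, and Apc is the highest at 0.40.

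In Ctrl the levels ran, from high to low mean FPKM, Apc, Ctnnb1, Csnk1a1, Gsk3b, Gsk3a, Fbxw11, Btrc, Axin1, Frat1 and Frat2. Neighbors in this order were apart in every Ctrl library for Csnk1a1 over Gsk3b, Fbxw11 over Btrc, Btrc over Axin1 and Axin1 over Frat1. The other neighbors overlapped between libraries. Of the scaffolds, Apc was thus at the top of the order by summed FPKM and Axin1 below all but the FRAT genes. The place of Apc rests in part on the short Apc-204, of 608 bases. In Ctrl its mean was 35.3 FPKM, within an Apc mean of 84.6 FPKM. Likewise, the place of Ctnnb1 above Csnk1a1 rests in part on the retained-intron Ctnnb1-209, with a Ctrl mean of 20.9 FPKM. The Ctrl means of Ctnnb1 and Csnk1a1 were 82.5 and 65.5 FPKM.

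Other genes of the pathway that are not among the 10 were followed as a list of 104, of which 70 passed the filter. Of these, 3 were called (4.29%, beside the 6.56% of all gene totals), 0 of them after adjustment in limma, and the same 3 were called from FPM. The median log2 fold change of the list was -0.02, and it turned to 0.04 under median-ratio rescaling. That rescaling also moved the median over all tested gene totals, from -0.0616 to -0.00337. Wnt7b, a ligand, was at 7.41, 6.14 and 6.86 FPKM in Ctrl, against 3.90, 4.08 and 3.61 FPKM in Gsk3sKO. The Gsk3sKO libraries were tightly grouped below Ctrl. Wnt7b fell by 0.68 on the log2 scale with a standard error of 0.20 (limma unadjusted p = 0.00939, adjusted p = 0.651). Porcn, the acyltransferase that Wnt proteins need for secretion, was at 9.67, 9.15 and 7.78 FPKM in Ctrl, against 6.35, 2.76 and 2.75 FPKM in Gsk3sKO. Gsk3sKO replicate 1 lay between the other Gsk3sKO libraries and Ctrl. Porcn fell by 1.07 with a standard error of 0.30 (limma unadjusted p = 0.00683, adjusted p = 0.607). Both kept an unadjusted p under 0.05 in limma under each alternative run.

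Ppp2r5a, a regulatory subunit of the phosphatase PP2A, was at 24.1, 23.4 and 27.8 FPKM in Ctrl, against 33.9, 30.2 and 34.5 FPKM in Gsk3sKO. All Gsk3sKO libraries were above all Ctrl libraries. Its log2 fold change was 0.38 with a standard error of 0.14 (limma unadjusted p = 0.0282, adjusted p = 0.726), and the call was lost without any of 4 libraries (Ctrl replicates 1 or 2, Gsk3sKO replicates 1 or 3), with values from 0.33 to 0.36. Csnk2b and Frzb also had every Gsk3sKO library below every Ctrl library and were not called. With Wnt7b and Porcn, 4 of the 70 tested genes of the list had that pattern, where 8.30% of all tested gene totals had it.

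By role, 2 of 10 tested ligand and secretion genes and 1 of 9 PP2A subunits were called, where 6.56% of all tested gene totals were called. Counts this small do not set a role apart from that share. None was called among 5 paralogs and scaffolds of the complex, 8 other casein kinases, 3 SCF ligase core subunits, 6 genes of axin turnover, the GSK3-binding Gskip, 12 dishevelled and receptor genes, 4 extracellular inhibitors, 7 catenin partners and 5 nuclear effectors. Axin2, a paralog of Axin1 and a widely used target of β-catenin, was at 5.54, 7.17 and 6.37 FPKM in Ctrl, against 6.76, 8.30 and 18.01 FPKM in Gsk3sKO. Gsk3sKO replicate 3 stood alone, and the log2 fold change of 0.60 was not called (limma unadjusted p = 0.105). Without that library it was 0.21, and without Gsk3sKO replicate 1 it was 0.86 (limma unadjusted p = 0.0337). In FPM, Axin2 was between 20.4 and 25.9 in Ctrl and between 19.97 and 26.1 in Gsk3sKO, with a log2 fold change of -0.01 (limma unadjusted p = 0.974). The gene with the highest mean over all 6 libraries in each role was the scaffold Amer2 at 24.3 FPKM, the casein kinase 2 subunit Csnk2b at 64.2 FPKM, the ligase adaptor Skp1a at 269.8 FPKM, the PP2A scaffold Ppp2r1a at 122.5 FPKM, the deubiquitinase Usp34 at 27.4 FPKM, Gskip at 7.17 FPKM, the receptor Fzd3 at 22.5 FPKM, the secreted Rspo2 at 14.2 FPKM, the Dickkopf protein Dkk3 at 122.9 FPKM, the catenin Ctnnd2 at 52.9 FPKM and the co-activator Bcl9 at 16.9 FPKM. Skp1a, which links F-box proteins to the ligase, was thus the highest of the list and above all 10 genes described here.

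**Figure D5:**
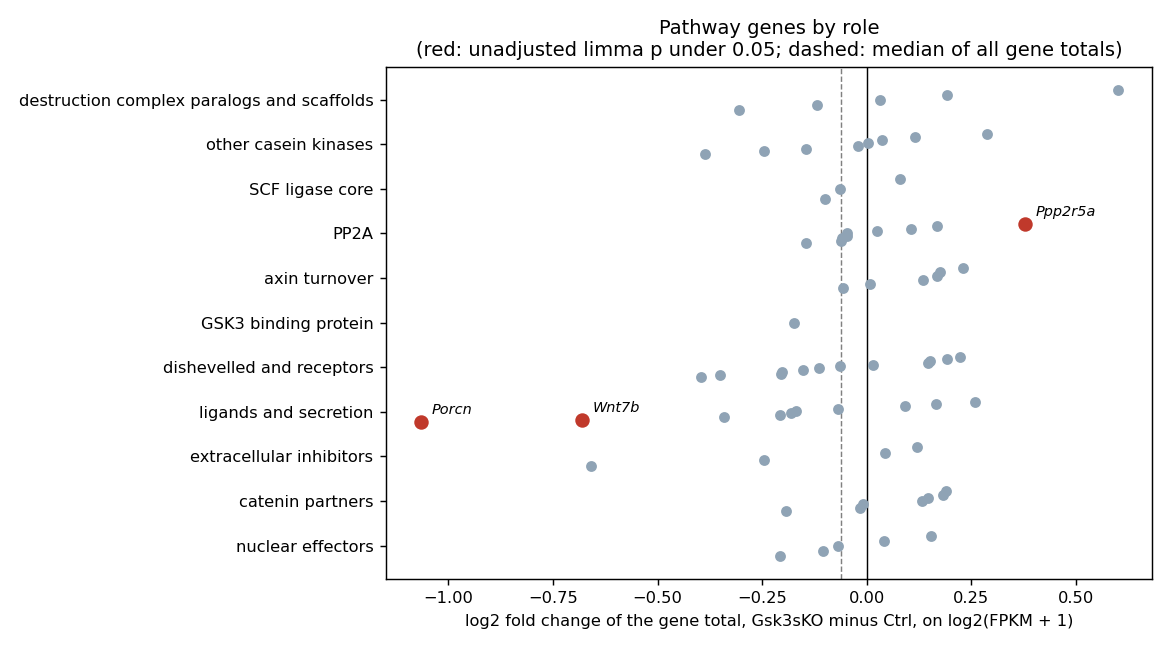
log2 fold change of the gene total (Gsk3sKO minus Ctrl, on log2(FPKM + 1)) of the 70 tested pathway genes, in rows by role, with the 3 called genes in red and the median of all gene totals, -0.06, as a dashed line. Porcn at -1.07 and Wnt7b at -0.68 lie farthest to the left, and the points in gray lie between -0.66 and 0.60.

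The libraries differed in ways that touch these values. A single RNA, Gm23935, took 24.3%, 24.9% and 12.9% of all FPKM in Ctrl replicates 1 to 3. In Gsk3sKO replicates 1 to 3 it took 13.4%, 12.2% and 7.80%. Transcripts above 0 numbered 42649, 55841 and 48789 in Ctrl, against 47601, 40787 and 41091 in Gsk3sKO. The estimated depth was 23.6 M to 45.9 M fragments in Ctrl and 28.8 M to 41.3 M in Gsk3sKO. These depths are rough, since they were searched only within a set range. Libraries correlated between 0.908 and 0.965 (Pearson's r across genes, which are not independent replicates). The highest value was between groups, for Gsk3sKO replicate 1 and Ctrl replicate 3. Within groups the highest values were 0.958 in Ctrl and 0.951 in Gsk3sKO. Drd2, which marks the labeled cells, was at 1.58, 6.02 and 14.1 FPKM in Ctrl, against 8.32, 5.96 and 7.28 FPKM in Gsk3sKO, lowest in Ctrl replicate 1, the library with the low Gsk3b-202. Rpl22, the tagged ribosomal protein, was between 36.6 and 47.7 FPKM in all libraries but Gsk3sKO replicate 2, at 89.6 FPKM. The summed 5 neuronal markers were at 1961 to 2078 FPKM in Ctrl and 1898 to 2148 FPKM in Gsk3sKO, with none called. Summed microglial markers were at 18.6 to 25.3 FPKM in Ctrl and 13.9 to 20.8 FPKM in Gsk3sKO, with 2 of 5 called lower, and oligodendrocyte markers at 114 to 177 FPKM and 124 to 162 FPKM, with 2 of 5 called lower. Over all tested gene totals 5.20% were called lower, and no marker list was tested as a set. Mog, an oligodendrocyte marker, shared the pattern of Frat1, at 3.996, 3.02 and 2.67 FPKM in Ctrl, against 1.81, 0 and 0 FPKM in Gsk3sKO, a gene chosen after its values were seen. None of the 5 excitatory neuron, inhibitory neuron, astrocyte or endothelial markers was called, and no marker of any list had a mean under 1 FPKM. The part of these differences in the results for Gsk3b, Axin1 and Frat1 was not tested.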

How the data were processed

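The authors deposited FPKM per transcript for 6 RiboTag immunoprecipitation libraries (total RNA, Illumina TruSeq Stranded kit), 3 per group. The submitters' processing notes name HISAT2 2.1.0, SAMtools 1.9, StringTie 1.3.4d and GRCm38, without settings. StringTie divides fragments between transcripts by estimate. The 3 columns of the authors' own comparisons (fold, p and q) were not used, and 0 library columns were left out. Groups and replicate numbers came from sample titles and genotype labels.

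Gene totals are summed FPKM per gene ID. Fragments per 1000000 mapped fragments (FPM), a total chosen after seeing the data, sum FPKM times length in kilobases from GENCODE M21, leaving out 983 of 115220 transcripts without a length. Features with a mean of at least 1 over 6 libraries were fitted as log2(value + 1) in limma 3.58.1 (R 4.3.3, trend, 2-sided), with Benjamini-Hochberg adjustment over all of them. The model was tested on simulated data. Single ratios were compared by exact permutation. Other steps used pandas 2.3.3 and numpy 2.4.6 in Python 3.11.15, and plots matplotlib 3.10.9.

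An approximate depth came from the steps between low values, of which 16.7% to 35.7% per library lay within 0.02 of a whole fragment, so counts were not recovered. The steps were searched only within a set range, so a depth outside it could not be found. No count test was run. The members, the pathway list and the marker lists were chosen with earlier results of these data known. Named genes are all members, their transcripts passing the filter, all Gsk3b transcripts, called pathway genes and the most abundant pathway gene of each role. Csnk2b, Frzb, Axin2 and Mog were otherwise named after their values were seen. Alternatives were a pseudocount of 0.1, no filter, a mean of at least 5, median-ratio rescaling, a replicate block, unmoderated variances and leaving out each library. Sequences came from the GRCm38 genome and GENCODE M21. The sgRNA sequence and protein sequences were not used here.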

Additional observations from a re-analysis of the deposited data

How the results depend on the processing

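Of the alternatives without a left-out library, median-ratio rescaling turned the direction of 3 transcripts (Ctnnb1-209 0.0515, Csnk1a1-204 0.0433, Csnk1a1-208 0.0102, all log2 and not called) and of the pathway list's median (0.0428), and FPM that of Axin2 (-0.00708, not called). Median-ratio rescaling also moved the median over all tested gene totals, from -0.0616 to -0.00337. The median of the pathway list lay between -0.0643 and 0.0257 over the left-out libraries. Leaving out each library in turn, the log2 fold change of Gsk3b ranged from -0.61 to -0.28, and it became called without Ctrl replicate 1 and in FPM (-0.57). Called member gene totals numbered 0 to 2 over the left-out libraries, 2 without a filter and 2 in FPM, against 1. Called member transcripts numbered 1 to 3 over the left-out libraries and 3 without a filter, against 1. Left-out libraries turned the direction of uncalled features, with lowest and highest log2 fold changes of -0.28 and 0.0602 for Ctnnb1, -0.0447 and 0.13 for Csnk1a1, -0.52 and 0.92 for Gsk3b-202, -1.45 and 0.55 for Gsk3a-202, -0.77 and 1.38 for Ctnnb1-201, -0.42 and 1.25 for Ctnnb1-208, -1.36 and 1.71 for Ctnnb1-209, -1.06 and 0.31 for Apc-201, -2.21 and 0.67 for Apc-203, -0.59 and 0.39 for Apc-206, -0.92 and 0.81 for Apc-209, -0.10 and 0.11 for Csnk1a1-204, -0.19 and 0.15 for Csnk1a1-208, -0.57 and 0.81 for Btrc-202, -0.87 and 0.14 for Fbxw11-201, -0.14 and 0.52 for Fbxw11-202, -0.53 and 0.27 for Fbxw11-203 and -0.82 and 0.17 for Fbxw11-204. Of these only Gsk3b-202 was called in such a fit, and the cause was not tested.

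Replicate numbers did not pair the libraries (correlations of same-numbered deviations -0.03, -0.01 and -0.08). With a replicate block, Gsk3b stayed at -0.40 (limma unadjusted p = 0.0820), and no call listed here was lost or gained under the block. Frat1 has no value under the filters of a mean of 1 or 5 FPKM, and with a pseudocount of 0.1 its log2 fold change was -3.61, so its size depends on the pseudocount. Frat1 and Frat2 had the fewest estimated fragments of the genes described here, at no more than 281 in any library. What depth contributed to their values was not tested.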
